A study of Mus musculus with 98 samples.

Results

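The 9 genes described here mark GABAergic interneurons, the inhibitory neurons of the hippocampus: Gad1, Gad2, Slc32a1, Pvalb, Lhx6, Dlx1, Dlx2, Dlx5 and Dlx6. They were chosen by name, as a fixed list, and read in every library of the series. They are 9 of 55852 gene symbols in the 6 count tables, and all 9 had a row in each table. The 98 libraries are bulk RNA sequencing of mouse hippocampal neurons in culture and of mouse hippocampus, in 22 groups taken from the sample titles. In bulk RNA, fewer cells of a type and less RNA per cell cannot be told apart, so a level below is a level of the whole sample.

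The cultured neurons were primary neurons from embryonic hippocampus of CD1 mice. At day 5 in vitro they received for 48 hours a PhP.eB virus, an adeno-associated virus, that was either upACSS2 (it raises ACSS2, which turns acetate into acetyl-CoA) or an empty vector. From day 7 they received either hAD-tau, spelled as in the labels, or PBS, and they were sampled unstimulated at day 9 or day 21, or stimulated at day 21, with 3 libraries in each of the 12 groups. The stimulus and the promoter that drives the viral gene are not given in the sources used here. Another culture, with no virus named, was sampled at day 21 after hAD-tau (4 libraries) or PBS (3 libraries). The mice were males that received upACSS2 or vector into the retro-orbital sinus. Aged C57BL6 mice (12 and 12, labelled 22 to 23 months old) were injected at 21 to 22 months of age. Whole hippocampus was taken 2 months later, 30 minutes after remote recall. These label entries for the ages and the interval match only in part. C57BL6 mice of 10 months (6 with upACSS2, 5 with vector) gave dorsal hippocampus 2 weeks after injection, 30 minutes after fear conditioning. PS19 mice carry a mutant human tau transgene under the mouse prion protein promoter in all 4 of their groups, with 5 mice in each group. They were injected at 2.5 months and sampled 1 or 6 months later, at 3.5 or at 8.5 to 9 months of age. Like that of the other mice, this sampling was 30 minutes after a test.

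The titles and the treatment entries of the labels contradict each other for the unstimulated neurons titled vector with hAD-tau or upACSS2 with PBS and for 6 of the PS19 mice at 1 month; the titles were followed. Acss2 itself, in CPM (counts per 1000000 counts of a library), checked the virus part of the titles. In the neurons it lay at 1488 to 5462 CPM in all libraries titled upACSS2 and at 40.1 to 57.9 CPM in all titled vector. In the aged mice the ranges overlapped, at 46.7 to 61.5 against 40.0 to 53.7 CPM, and in the 10-month mice they did not, at 49.9 to 59.3 against 42.3 to 48.8 CPM. The PS19 libraries titled upACSS2 ran from 44.9 to 1465 CPM and those titled vector from 43.1 to 66.3 CPM; 3 of the 10 upACSS2 libraries lay inside the vector range. Nothing in these tables checks the hAD-tau part of the titles. At 1 month the PS19 mice with upACSS2 are labelled whole hippocampus and those with vector dorsal hippocampus, so virus and tissue cannot be told apart there; at 6 months all PS19 mice are labelled dorsal hippocampus.

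As background, Gad1 and Gad2 encode the enzymes that make GABA from glutamate, and Slc32a1 encodes the transporter that loads GABA into synaptic vesicles, so these genes mark inhibitory neurons of every kind. Lhx6 is a transcription factor of interneurons born in the medial ganglionic eminence, and the Dlx genes encode homeodomain factors that direct the birth and migration of forebrain GABAergic cells. Pvalb encodes parvalbumin, a calcium buffer of fast-spiking interneurons that appears late in their maturation.

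The genes lie on 3 chromosomes (GRCm38). Chromosome 2 holds Gad1 (70553072 to 70602014, plus strand), Gad2 (22622205 to 22693874, plus), Slc32a1 (158610767 to 158615748, plus), Lhx6 (36081953 to 36105408, minus), Dlx1 (71528113 to 71533981, plus) and Dlx2 (71543408 to 71546754, minus). Dlx5 (6877805 to 6882085, minus) and Dlx6 (6863334 to 6868568, plus) lie on chromosome 6, and Pvalb (78191114 to 78206400, minus) on chromosome 15. The Dlx genes form 2 convergent pairs, with 9426 bases between Dlx1 and Dlx2 and 9236 bases between Dlx6 and Dlx5. Exons of Slc32a1, Dlx1 and Dlx6 are overlapped on the other strand by Gm14205 (697 bases), Dlx1as (335 bases) and Dlx6os2 (104 bases), and Gm27953 shares 104 exon bases with Lhx6 on its own strand. The strand setting of the counting is not given in the sources used here, so reads from these overlapping genes cannot be told apart.

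Pvalb and Lhx6 are expressed in the same lineage of interneurons. Of the listed genes, Lhx6 had the lowest correlation with Pvalb within groups over all libraries together. This did not hold in each experiment (0.235 in the aged mice), and both genes were higher at day 21 than at day 9 in the unstimulated neurons. The 250 bases before one start site of each are shown, from RefSeq (GRCm38.p6), 5′ to 3′ on the gene's strand. CAGCTG, an E-box, is in capitals. The Pvalb sequence is chr15:78206401-78206650 and the Lhx6 sequence chr2:36105409-36105658, both on the minus strand and both upstream of the gene's first exon.
Pvalb: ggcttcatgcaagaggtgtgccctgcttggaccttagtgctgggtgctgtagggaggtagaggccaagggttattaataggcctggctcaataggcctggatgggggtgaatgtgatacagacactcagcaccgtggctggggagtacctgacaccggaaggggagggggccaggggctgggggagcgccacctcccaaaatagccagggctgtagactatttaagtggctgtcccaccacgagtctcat
Lhx6: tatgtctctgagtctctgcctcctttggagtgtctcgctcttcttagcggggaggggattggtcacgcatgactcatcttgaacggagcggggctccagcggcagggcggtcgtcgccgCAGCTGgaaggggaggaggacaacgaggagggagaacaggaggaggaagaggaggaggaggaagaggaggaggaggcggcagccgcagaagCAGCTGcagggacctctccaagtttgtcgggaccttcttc
The Pvalb stretch has 58.4% G and C and no CAGCTG; the Lhx6 stretch has 61.6% G and C and 2 copies, 131 and 40 bases before the start. The search for 3 motifs covered both strands of the 250 bases before each start site, and 7 of the 9 genes had an entry, with 10 start sites. CAGCTG was in 4271 of 32851 mouse promoters and, among the 10, only in this Lhx6 stretch. TATAAA was in 12.4% of the promoters and, among the 10, in 1 start site of Gad1. TAATTA, a core that homeodomain factors can bind, was in 4.84% of the promoters and in 0 of the 10. These are matches of letters in a window, not binding sites.

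The libraries held 14603730 to 33960722 counts each in the unstimulated neurons, 18804544 to 39985460 in the stimulated neurons, 5683314 to 29890248 in the other culture and 5075099 to 33259982 in the mice. A gene was called changed at an adjusted p under 0.05 in edgeR's quasi-likelihood test (Benjamini-Hochberg over all genes tested); fold changes are log2, with SE. The labels do not say that libraries of a neuron group came from separate cultures, so p-values there measure only the spread between these samples. That spread was much wider at day 21 than at day 9: the biological coefficient of variation over all genes was 0.0420 at day 9, 0.189 at day 21 and 0.138 in the stimulated neurons. Comparisons of day 21 with day 9 came from a fit over both days, where the coefficient was 0.135. Their SE and adjusted p therefore rest on a spread shared by days that differ in it. Markers of other cells were present throughout, and summed CPM of 8 astrocyte markers ran from 2127 to 2630.5 at day 9 and from 3272 to 18532 at day 21. The 8 markers of striatum, whose principal neurons are GABAergic too, summed to 84.8 to 261 CPM over all groups, with none at 0.

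Per kilobase of exon, the order of the 9 levels at day 9 was Gad1 (median 39.5 CPM per kb over 12 libraries), Slc32a1 (28.6), Gad2 (24.5), Lhx6 (13.2), Dlx1 (3.55), Dlx5 (2.23), Dlx2 (2.17), Dlx6 (0.511) and Pvalb (0.0608). The ranges of Slc32a1 and Gad2 met, as did those of Dlx5 and Dlx2; the other neighbours did not overlap. In the 24 aged mice the order was Gad1 (52.0), Gad2 (32.3), Pvalb (30.1), Slc32a1 (28.9), Lhx6 (3.84), Dlx1 (3.23), Dlx6 (1.52), Dlx5 (1.40) and Dlx2 (1.37). There Gad2, Pvalb and Slc32a1 overlapped, as did Lhx6 with Dlx1 and the last 3 Dlx genes with each other. Lhx6 stood at 13.2, 16.3 and 16.7 CPM per kb in the neurons at day 9, at day 21 and stimulated, and at 3.84, 2.89 and 3.28 in the aged, 10-month and PS19 mice. Pvalb ran the other way, with 2.44 at day 21 and 2.61 stimulated against 30.1, 33.1 and 24.5 in the mice. Dlx2 and Dlx5 ran at 3.79 and 5.13 in the stimulated neurons against 1.93 and 2.89 unstimulated at day 21. Each table was scaled on its own, so levels across tables are set side by side and not tested.

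**Figure D1:**
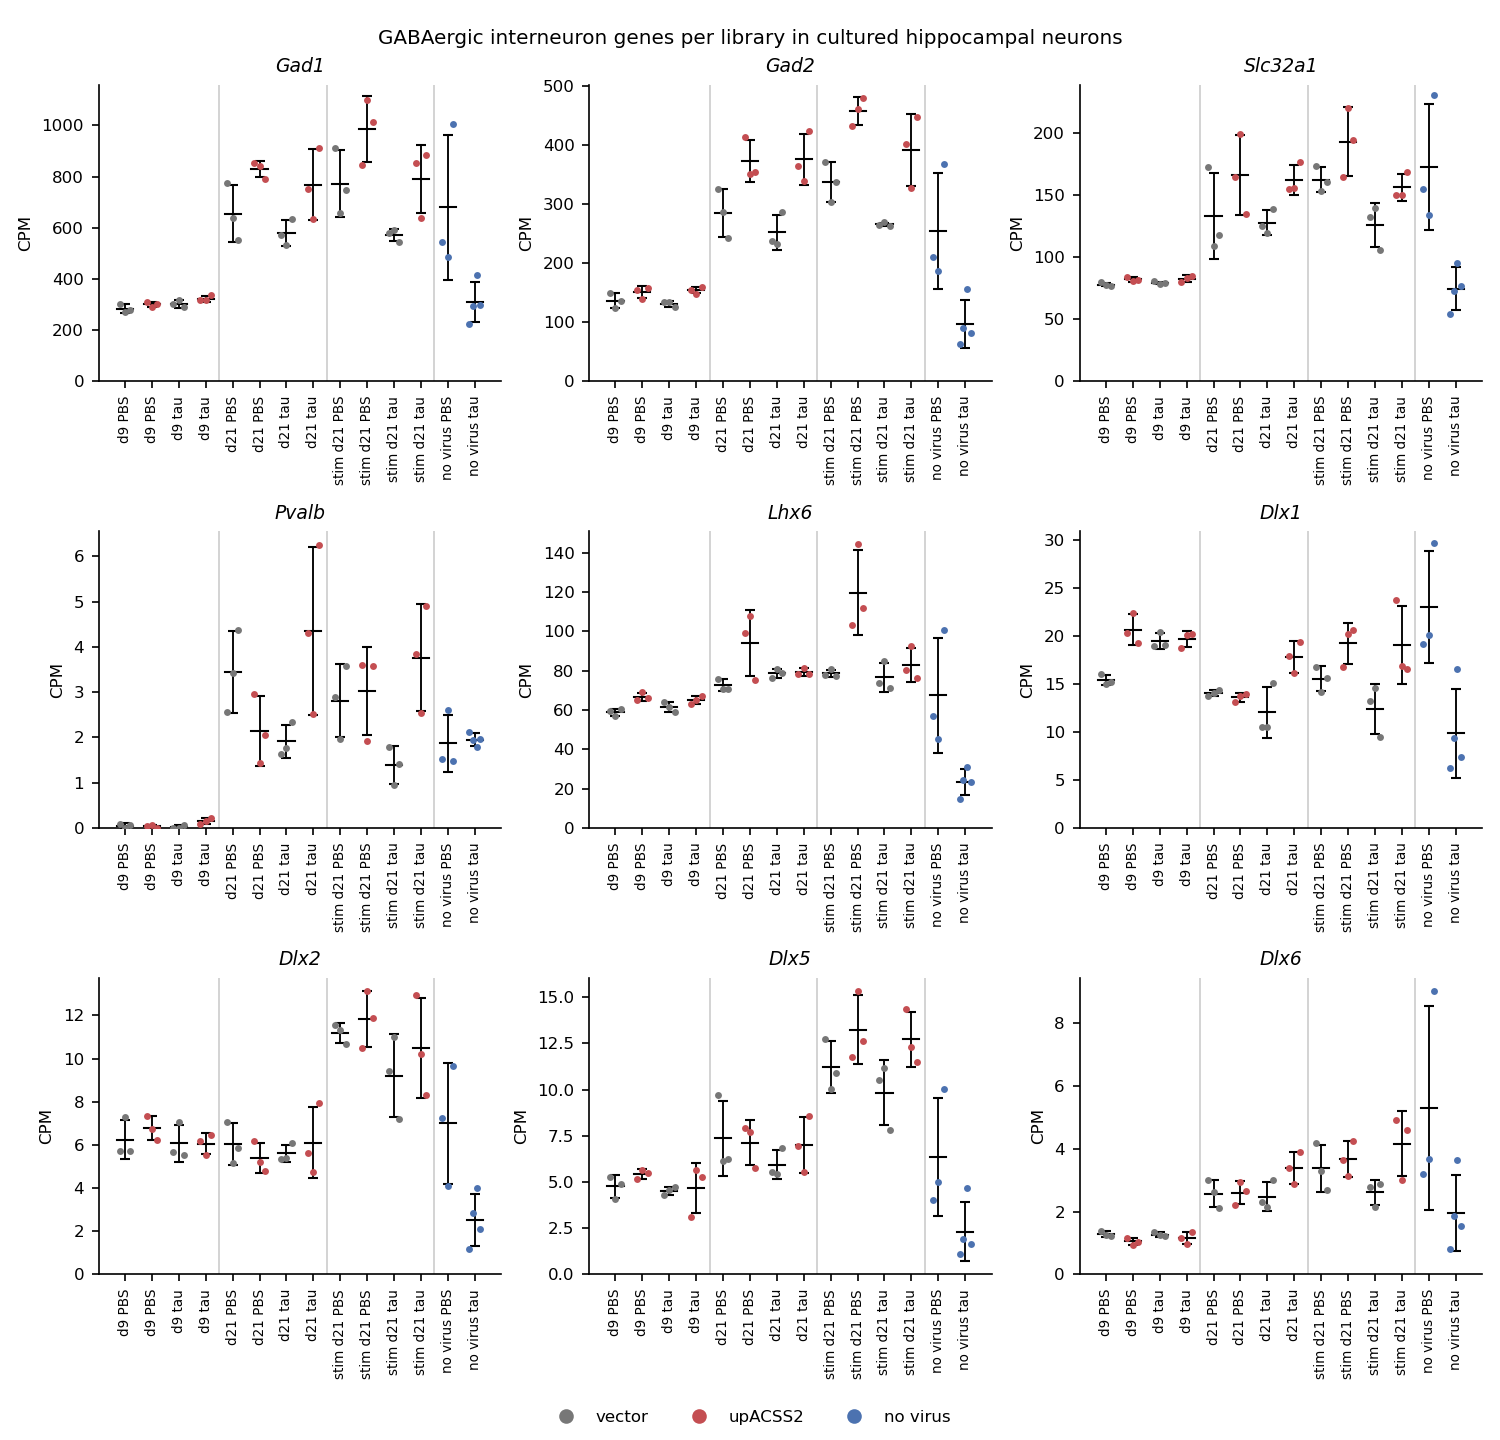
CPM (vertical axis, 1 panel per gene) in each library of the 14 neuron groups, with bars for the group mean and SD (n = 3, or 4 for the hAD-tau culture without virus). Pvalb is near 0 in all day 9 libraries and at 0.945 to 6.25 CPM in all day 21 libraries.

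Between day 9 and day 21 the genes of GABA synthesis and release rose in all 4 treatments of the unstimulated neurons, Pvalb went from near 0 to a low level, and Dlx1 and Dlx2 did not rise. With vector and PBS, Gad1 had 302, 269 and 280.2 CPM at day 9 and 774, 638 and 554 at day 21. Every day 21 value was above every day 9 value, a change of 1.21 on the log2 scale (SE 0.117, adjusted p = 3.94e-08). Gad2, the synthesis enzyme found mostly at nerve terminals, had 149.5, 124 and 136 CPM and then 325, 287 and 243, a change of 1.06 (SE 0.112, adjusted p = 1.25e-07). For Slc32a1, the vesicle transporter, 79.4, 77.6 and 76.3 CPM became 173, 109 and 118, a smaller change of 0.77 (SE 0.134, adjusted p = 6.06e-05). In the other 3 treatments the same genes rose by 0.94 to 1.46, 0.94 to 1.31 and 0.69 to 1.02 on the log2 scale, with no overlap between days.

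Pvalb was close to the limit of counting at day 9. With vector and PBS, 0.0920, 0 and 0.0606 CPM at day 9 became 2.55, 3.42 and 4.37 at day 21. Over the 3 libraries together that was 4 counts against 294, a ratio of CPM of 59.3 (95% interval 22.9 to 219, for counting error only). The other treatments had 1 count against 132 (vector with hAD-tau; ratio 88.0, interval 15.5 to 3503), 2 against 146 (upACSS2 with PBS; 62.8, 17.1 to 523) and 11 against 278 (upACSS2 with hAD-tau; 27.1, 14.9 to 54.8). The intervals overlap one another. The adjusted p of the change ran from 1.04e-06 to 4.20e-08.

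Lhx6 rose less, from 59.3, 56.7 and 60.4 CPM to 75.95, 70.6 and 70.8 with vector and PBS, a change of 0.30 (SE 0.0882, adjusted p = 0.00631), and by 0.29 to 0.50 in the other treatments. Of the 4 Dlx genes, Dlx6 and, in part, Dlx5 rose, and Dlx1 and Dlx2 did not. Dlx6 had 1.38, 1.27 and 1.21 CPM at day 9 and 2.99, 2.62 and 2.11 at day 21 with vector and PBS, and rose by 0.96 to 1.53 over the 4 treatments. Dlx5 was called with vector and PBS (0.61, adjusted p = 0.0189) and with upACSS2 and hAD-tau (0.59, adjusted p = 0.0262), and had adjusted p of 0.145 and 0.127 in the other treatments. The first call was lost without day 9 vector PBS library 2 (0.52, adjusted p = 0.0792) or day 21 vector PBS library 1 (0.38, adjusted p = 0.123). The second was lost without day 9 upACSS2 hAD-tau library 1 (0.37, adjusted p = 0.163) or day 21 library 3 of that treatment (0.41, adjusted p = 0.148).

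Dlx1 fell in 2 of the 4 treatments. With vector and hAD-tau it had 19.01, 20.4 and 19.04 CPM at day 9 and 10.5, 10.5 and 15.1 at day 21, a change of -0.69 (SE 0.112, adjusted p = 3.23e-05). With upACSS2 and PBS it had 20.3, 22.4 and 19.3 CPM and then 13.1, 13.8 and 13.9, a change of -0.60 (adjusted p = 1.32e-04). With vector and PBS (-0.14, adjusted p = 0.307) and with upACSS2 and hAD-tau (-0.14, adjusted p = 0.278) it did not pass the test. Dlx2 was called in none of the 4, with changes of -0.33 to 0.01 and a lowest adjusted p of 0.119.

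In each treatment 7 of the 9 genes were called, 7 or 6 of them higher, against 57.7%, 52.6%, 54.3% and 53.6% of all 14863 genes tested (vector PBS, vector hAD-tau, upACSS2 PBS and upACSS2 hAD-tau). Of all genes 30.6%, 27.7%, 28.5% and 27.2% were called higher in these treatments, and 24.9% and 25.8% were called lower in the 2 treatments where Dlx1 was. Groups of the 2 days did not overlap, in the higher direction, for 7, 7, 7 and 6 of the 9 genes and for 30.3%, 31.3%, 33.8% and 34.5% of all genes. In the lower direction this held for Dlx1 in all treatments but the last (28%, 28.6% and 30.7% of all genes) and for Dlx2 with upACSS2 and PBS. With vector and PBS the median change of the 9 was 0.77 and that of all genes tested 0.05. Of the interneuron subtype genes (peptides, calcium-binding proteins and receptors that mark subclasses), 17 of 26 tested were called higher and 4 lower, with a median of 1.19. Among them Crhbp, a binding protein for corticotropin-releasing hormone, went from 6.22 to 43.7 CPM (2.78, adjusted p = 5.28e-10) and Elfn1, a synaptic protein of somatostatin cells, from 9.89 to 34.8 CPM (1.81, adjusted p = 2.08e-09). Of 20 interneuron transcription factors 8 were called higher and 4 lower (median 0.21), and of 11 genes that handle GABA 4 each way (median 0.03). In that list Glul, the glutamine synthetase of astrocytes, rose from 230 to 876 CPM (1.93) and Slc6a11, a GABA transporter, fell from 258 to 65.7 CPM (-1.97).

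Other cell types moved over the same days. Of 8 astrocyte markers 7 were called higher (median 1.83; summed CPM 2177 to 2405 at day 9 and 4163 to 18532 at day 21 with vector and PBS), of 6 oligodendrocyte precursor markers 6 (2.79; 287 to 335 and 1135 to 1857) and of 8 oligodendrocyte markers 6 (1 lower). Of 8 markers of all neurons 4 were called lower and 2 higher, with summed CPM of 8823 to 8859.8 and then 4139 to 6386, and of 8 excitatory neuron markers 4 lower and 1 higher. The summed CPM of the 9 interneuron genes went from 555 to 619 to 1018 to 1383. The part of these shifts in the changes of the 9 genes was not tested. Whether upACSS2 altered the change between days in PBS was tested as an interaction: 0 of the 9 genes were called (0.0404% of all genes), and the largest, Dlx1, was at -0.47 (adjusted p = 0.245).

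**Figure D2:**
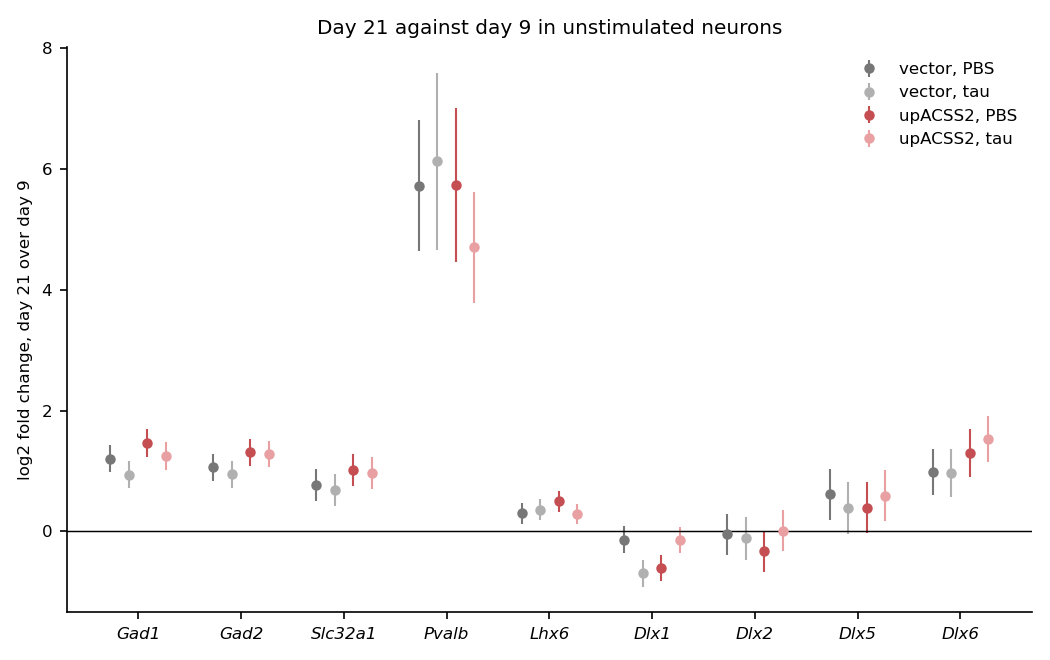
Log2 fold change of each gene at day 21 over day 9 (vertical axis, with 95% intervals) in the 4 treatments of the unstimulated neurons. Pvalb stands at 4.71 to 6.13, Gad1, Gad2 and Slc32a1 at 0.69 to 1.46, and Dlx1 at -0.69 to -0.14.

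At day 9 the levels of the 9 genes with upACSS2 and with vector were close, and the 2 genes called in PBS were transcription factors. Dlx1 had 20.3, 22.4 and 19.3 CPM with upACSS2 and 16.04, 15.02 and 15.2 with vector. The groups did not overlap, and the change of 0.40 (SE 0.0731) passed the test (adjusted p = 0.00223) and each of 6 fits that left out 1 library. Lhx6 had 65.02, 69.01 and 66.01 CPM with upACSS2 and 59.3, 56.7 and 60.4 with vector, again with no overlap (0.17, SE 0.0483, adjusted p = 0.0264). The Lhx6 call was lost in 4 of the 6: without upACSS2 library 2 (adjusted p = 0.123) or 3 (0.0568), or vector library 1 (0.0876) or 2 (0.0830). With all 24 libraries of both days in 1 fit, neither was called.

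These were 2 of 8 genes tested, against 10.2% of all genes (4.9% higher); Pvalb did not pass the filter on low counts. Gad1 (0.08), Gad2 (0.13) and Slc32a1 (0.07) had adjusted p of 0.265, 0.134 and 0.338. Without vector library 1, Gad2 was called (0.20, adjusted p = 0.0496). Of the 9 genes 3 lay higher with no overlap, as did 16.6% of all genes. Dlx6 lay lower with no overlap (-0.30, adjusted p = 0.440), as did 14.2%. Of 24 subtype genes tested 8 were called higher and 1 lower (median 0.13). Sst, the peptide somatostatin, had 104 against 76.8 CPM (0.43, adjusted p = 0.00101), Nxph1, a neurexin ligand, 40.5 against 32.5 CPM (0.31) and Nos1, a nitric oxide synthase, 111 against 89.7 CPM (0.30). Abat, which degrades GABA, was 1 of 4 GABA handling genes called higher of 11 (172 against 146 CPM, 0.23). In the same comparison 3 of 5 oligodendrocyte precursor markers were lower and 4 of 8 neuron markers higher (1 lower; summed CPM 9421 to 9643 against 8823 to 8859.8), whose part in these changes was not tested.

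In hAD-tau at day 9 none of 8 genes tested was called for upACSS2 against vector (0.692% of all genes). Gad2, with 155, 149 and 160.4 against 134, 135 and 125 CPM, did not overlap, as in 9.21% of all genes in that direction, and stood just outside the threshold (0.23, adjusted p = 0.0524). Pvalb counts were too few to test there, at 0.0902, 0.161 and 0.223 CPM with upACSS2 and 0, 0 and 0.0716 with vector. For hAD-tau against PBS with vector, 1 of 8 was called (4.28% of all genes; 2.01% higher): Dlx1, at 19.01, 20.4 and 19.04 CPM against 16.04, 15.02 and 15.2 (0.33, SE 0.0759, adjusted p = 0.0178). That comparison and the one of upACSS2 in PBS share the vector PBS libraries, which held the lowest Dlx1 values of day 9. The hAD-tau call was lost without hAD-tau library 1 (adjusted p = 0.058) or 2 (0.129) or vector PBS library 1 (0.0725). Groups did not overlap in that direction for 10.8% of all genes. With upACSS2, none of the 8 was called for hAD-tau against PBS (0.349% of all genes), and Gad1 lay higher with no overlap (0.10), as did 7.78% of all genes. The interaction of virus and hAD-tau called none (0.663% of all genes), with Dlx1 the nearest at -0.39 (SE 0.103, adjusted p = 0.0630).

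**Figure D3:**
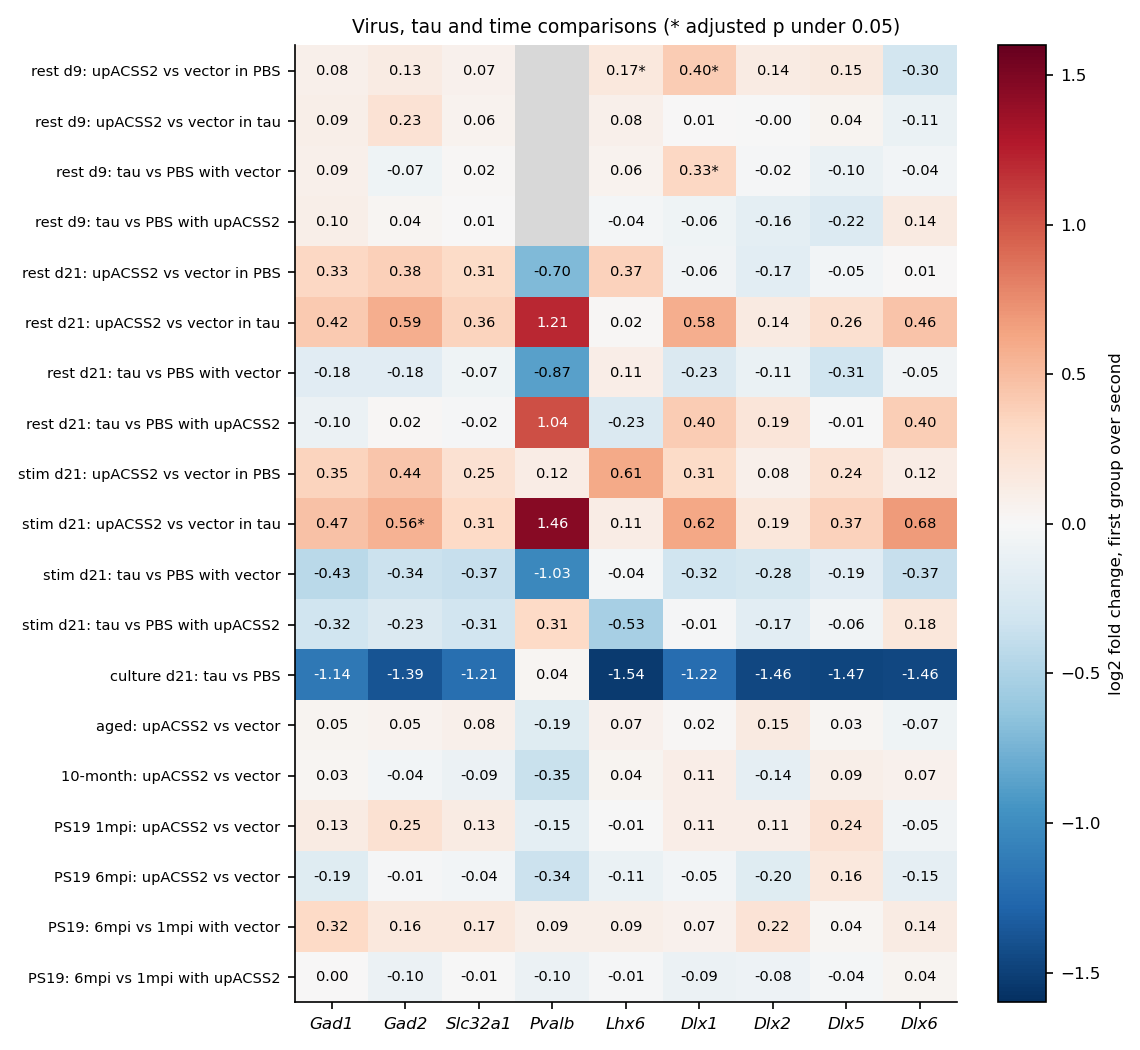
Log2 fold change (colour) of the 9 genes (columns) in 19 comparisons of virus or hAD-tau in neurons and of virus or time in mice (rows); a star marks an adjusted p under 0.05 and grey a gene not tested. Stars stand at Dlx1 and Lhx6 for upACSS2 in PBS at day 9, Dlx1 for hAD-tau at day 9 and Gad2 for upACSS2 in hAD-tau in the stimulated neurons.

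At day 21 in the unstimulated neurons no comparison of virus or hAD-tau called any of the 9 genes, and few genes were called at all. For upACSS2 against vector in PBS (0.0137% of all genes called), Gad1 had 851, 842 and 792 against 774, 638 and 554 CPM (0.33, adjusted p = 0.312). Gad2 had 415, 351 and 354 against 325, 287 and 243 CPM (0.38, adjusted p = 0.233). These were the 2 genes whose groups did not overlap in the higher direction, as in 8.12% of all genes. Lhx6 stood at 0.37 (adjusted p = 0.202) and Pvalb at -0.70 (SE 0.363, adjusted p = 0.347). The summed astrocyte markers were 3591 to 5973 with upACSS2 and 4163 to 18532 CPM with vector, and their part was not tested.

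In hAD-tau all 9 genes had a positive estimate for upACSS2 against vector and none was called (0.0273% of all genes). By edgeR 4 of the 9 had an unadjusted p under 0.05, as had 1564 of all 14639 genes tested. Gad2 had 365, 339 and 424 against 238, 233 and 287 CPM (0.59, SE 0.140, adjusted p = 0.227). Dlx1 had 17.96, 16.1 and 19.4 against 10.5, 10.5 and 15.1 CPM (0.58, adjusted p = 0.257). Pvalb, the maturation marker, had 4.30, 2.53 and 6.25 against 1.62, 1.77 and 2.33 CPM (1.21, SE 0.367, adjusted p = 0.304). Those 3, Gad1 (0.42) and Slc32a1 (0.36) did not overlap, as did 9.48% of all genes in that direction, while Lhx6 stood at 0.02. All 8 astrocyte markers had positive estimates there too (median 0.40, none called), and their part was not tested.

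For hAD-tau against PBS with vector, 0 of 14639 genes were called by edgeR, 1361 had an unadjusted p under 0.05 and DESeq2 called 3. Of the 9 genes 8 had negative estimates, from -0.05 for Dlx6 to -0.87 (SE 0.366) for Pvalb, whose groups did not overlap (1.62, 1.77 and 2.33 against 2.55, 3.42 and 4.37 CPM), as in 4.56% of all genes in that direction. Lhx6 lay higher with no overlap (0.11; 4.91% of all genes). With upACSS2 (0% of all genes called), hAD-tau against PBS gave estimates of -0.10 to 0.02 for Gad1, Gad2 and Slc32a1, and Pvalb stood at 1.04 (adjusted p = 0.755). Dlx1 lay higher with no overlap (0.40, adjusted p = 0.762), as did 8.25% of all genes. The interaction of virus and hAD-tau for Pvalb was 1.91 (SE 0.516), with an unadjusted p of 0.00315 and an adjusted p of 0.545.

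In the stimulated neurons 1 of the 9 genes, Gad2, was called for the virus, in hAD-tau. There Gad2 had 402, 327 and 447 CPM with upACSS2 and 265, 269 and 263 with vector, a change of 0.56 (SE 0.108, adjusted p = 0.0383). All 3 upACSS2 values were higher and more spread than the 3 vector values. The call was lost without upACSS2 library 1 (adjusted p = 0.158) or 3 (0.132) or vector library 1 (0.0986) or 3 (0.119). Gad1 had 852, 639 and 885 against 580.2, 591 and 546 CPM (0.47, adjusted p = 0.110), and Slc32a1 stood at 0.31 (adjusted p = 0.170).

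Pvalb had 3.85, 2.54 and 4.90 CPM with upACSS2 and 1.79, 0.945 and 1.42 with vector, with no overlap (1.46, SE 0.355, adjusted p = 0.0695). Libraries of the same number deviated together in this comparison, and with the replicate number as a block Pvalb passed (adjusted p = 0.0103), as did Gad2 (0.0264). The block called 399 of all genes, against 140 without it. Dlx1 (0.62, adjusted p = 0.0965), Dlx6 (0.68, 0.137) and Dlx5 (0.37, 0.219) did not overlap either, and Lhx6 did (0.11, 0.633). In all, 1 of 9 was called against 0.937% of all genes (0.395% higher), and 7 of 9 lay higher with no overlap against 12.4%. Of 26 subtype genes 3 were called, all higher: Nos1 (83.5 against 40.7 CPM, 1.04), Sst (186 against 118 CPM, 0.66) and Crhbp (74.2 against 39.7 CPM, 0.90). All 8 astrocyte markers had positive estimates (median 0.83, none called; summed CPM 6800.2 to 7587 against 2842 to 4425), as had all 8 oligodendrocyte markers (0.63), and their part was not tested. The neuron markers had a median of 0.10.

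In PBS, the stimulated neurons had positive estimates for all 9 genes with upACSS2, and none was called (0.208% of all genes). Lhx6 came nearest, with 103, 145 and 112 against 77.7, 80.6 and 77.4 CPM (0.61, SE 0.121, adjusted p = 0.0743). Gad2 had 433, 462 and 479.6 against 372, 304 and 338 CPM (0.44, adjusted p = 0.110). With Dlx1 these were 3 genes higher with no overlap, against 11.3% of all genes. Pvalb overlapped (0.12, adjusted p = 0.891). Abat was the only companion gene called (323 against 217 CPM, 0.58, adjusted p = 0.0479).

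For hAD-tau against PBS with vector in the stimulated neurons, all 9 estimates were negative and none was called (3.02% of all genes; 1.76% lower). Gad1 had 580.2, 591 and 546 against 914, 657 and 747 CPM (-0.43, adjusted p = 0.0995), Gad2 stood at -0.34 (0.0837) and Slc32a1 at -0.37 (0.0913). Pvalb stood at -1.03 (SE 0.359, adjusted p = 0.110), and passed with the replicate number as a block (adjusted p = 0.0221). Same-numbered libraries deviated together here too. The block called 1069 of all genes, against 451 without it. Gad1, Gad2, Slc32a1 and Pvalb lay lower with no overlap, as did 13.1% of all genes. Nos1 (-0.73) and Sst (-0.64) were the subtype genes called, and Maf (-0.76) and Prox1 (-0.73) the transcription factors. Astrocyte markers moved alike, with 8 of 8 estimates negative (median -0.77, 2 called). Of 6 markers of Cajal-Retzius cells, the early reelin-secreting neurons, 2 were called lower (median -0.93). Their summed CPM overlapped, at 430 to 531 with hAD-tau against 501 to 564 with PBS. This list shares genes with the subtype list. The part of the astrocyte and Cajal-Retzius markers was not tested. This comparison shares the vector hAD-tau libraries with that of upACSS2 in hAD-tau, and those 3 libraries hold the lowest summed level of the 9 genes in the stimulated neurons (1015 to 1124 CPM against 1235.6 to 1979.2 in the other 9).

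With upACSS2, hAD-tau against PBS called none of the 9 (0.208% of all genes). Lhx6 lay lower with no overlap, at 80.1, 92.5 and 76.2 against 103, 145 and 112 CPM (-0.53, adjusted p = 0.0878), as did 11.2% of all genes, while Pvalb stood at 0.31. Summed CPM of excitatory markers was 4125 to 4641 with hAD-tau against 2657 to 3332 with PBS. That of neuron markers was 6578 to 7497 against 5510 to 6454, also with no overlap. Astrocyte markers overlapped, at 6800 to 7587 against 5128 to 9131. The part of these lists was not tested. The interaction of virus and hAD-tau called 0 of 14939 genes by edgeR, 2135 of them with an unadjusted p under 0.05, and stood at 1.34 (SE 0.484, adjusted p = 0.270) for Pvalb and -0.49 (SE 0.171, adjusted p = 0.262) for Lhx6.

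In the culture without virus 8 of the 9 genes had estimates of -1.54 to -1.14 for hAD-tau against PBS, with wide error. Gad1 had 225, 294, 414 and 299 CPM with hAD-tau and 545, 487 and 1007 with PBS (-1.14, SE 0.299, adjusted p = 0.306). Lhx6 had 14.6, 24.3, 31.1 and 23.2 against 56.8, 45.01 and 100.4 CPM (-1.54, SE 0.327, adjusted p = 0.306). Each hAD-tau library was below each PBS library for both genes. Gad2 (-1.39), Slc32a1 (-1.21), Dlx1 (-1.22) and Dlx2 (-1.46) did not overlap either, and Dlx5 (-1.47) and Dlx6 (-1.46) did. Pvalb differed from the rest, with 2.12, 1.94, 1.78 and 1.97 against 1.52, 2.60 and 1.48 CPM (0.04, SE 0.277, adjusted p = 0.957).

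None of the 9 was called, nor any of 16341 genes, although 8 of the 9 and 2272 of all genes had an unadjusted p under 0.05; 6 of 9 lay lower with no overlap, against 9.8% of all genes. DESeq2 called 308 genes and 4 of the 9: Gad1 (adjusted p = 0.0401), Gad2 (0.0261), Slc32a1 (0.0043) and Lhx6 (0.00553). PBS library 3 stood apart, with a summed level of the 9 genes of 1764 CPM against 887 and 1002 in the other PBS libraries and 367 to 727 with hAD-tau. It also had the lowest summed oligodendrocyte precursor markers (101 CPM against 2669.6 to 4565 with hAD-tau) and astrocyte markers (2012 CPM against 6399.8 to 11930.0). Without it the estimates were -0.74 for Gad1, -1.02 for Gad2, -0.95 for Slc32a1, -1.12 for Lhx6 and -0.82 for Dlx6, with adjusted p of 0.217 to 0.571 over the 8 genes. Other neuronal lists had negative medians too, at -0.76 for the neuron markers (7 of 8 negative), -0.65 for the excitatory markers (7 of 8), -1.09 for the subtype genes (23 of 25) and -0.25 for the interneuron transcription factors (13 of 20). Summed CPM of the neuron markers did not overlap, at 2374 to 3012 with hAD-tau against 3099 to 5370 with PBS. Nor did that of the Cajal-Retzius markers, at 118 to 258 against 354 to 388. The sums of the subtype genes overlapped, at 1004 to 1880 against 1802 to 3501. Those of the interneuron transcription factors overlapped too, at 1103 to 1259 against 983 to 1245. So did those of the excitatory markers, at 1506 to 1835 against 1005 and 1051 in PBS libraries 2 and 1 and 2013 in library 3. Glial lists had positive medians, at 0.72 for astrocytes, 1.32 for precursors and 0.56 for microglia. Summed CPM of astrocyte markers overlapped, at 6399.8 to 11930.0 with hAD-tau against 7207 and 8403 in PBS libraries 1 and 2. Those of microglia markers overlapped too, at 49.7 to 463 against 74.1 to 257. Those of precursor markers did not, with 1862 and 2253 in PBS libraries 1 and 2. The part of all these lists in the levels of the 9 genes was not tested.

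**Figure D4:**
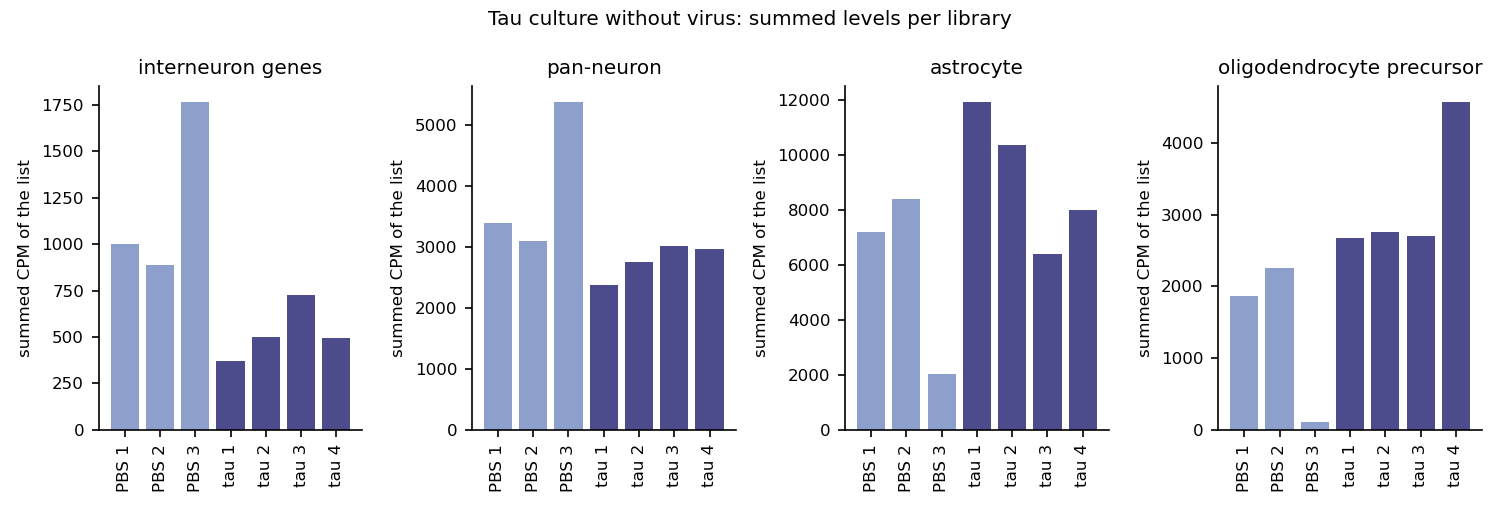
Sum of CPM of the 9 interneuron genes and of markers of neurons, astrocytes and oligodendrocyte precursors (bars) in each of the 7 libraries of the culture without virus. The sum of the 9 genes is 367 to 727 in the hAD-tau libraries and 887 to 1764 in the PBS libraries, with PBS library 3 highest.

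In the mice no comparison of upACSS2 with vector called any of the 9 genes, nor any gene at all (0% in each of the 4). In the aged mice Gad1 had a lowest, median and highest level of 354, 416 and 459.8 CPM with upACSS2 and 368, 390.0 and 492 with vector (0.05, SE 0.0475). Gad2 had 171, 195 and 214 against 175, 188 and 194 CPM (0.05) and Pvalb 20.5, 29.9 and 40.98 against 27.02, 33.6 and 46.1 (-0.19, SE 0.104, adjusted p = 0.889). The groups overlapped for all 9, and the estimates ran from -0.19 to 0.15, with 846 of all genes at an unadjusted p under 0.05. The 12 mice a group held the estimates of Gad1, Gad2, Slc32a1, Lhx6 and Dlx1 to an SE of 0.0343 to 0.0531. Markers of endothelial and mural cells had 8 of 8 positive estimates (median 0.37, none called).

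In the 10-month mice Pvalb had 21.2, 31.3 and 36.7 CPM (lowest, median, highest) with upACSS2 and 32.2, 39.00 and 50.03 with vector, an estimate of -0.35 (SE 0.142) with an unadjusted p of 0.0248 and an adjusted p of 0.544. Without vector library 2, which held the highest Pvalb, Gad2 (225 CPM) and Slc32a1 (98.6 CPM) of its group and summed thalamus markers of 431 CPM against 106 to 159.8 in the other 10 libraries, the estimate was -0.25 (adjusted p = 0.787). The other 8 genes stood between -0.14 and 0.11, and 1204 of all genes had an unadjusted p under 0.05.

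In the PS19 mice at 1 month, where tissue labels differ between the groups, Gad2 had 214, 189.8, 185, 219 and 192 CPM with upACSS2 and 171, 162, 194, 139 and 174 with vector (0.25, SE 0.0958, unadjusted p = 0.0175, adjusted p = 0.964). The ranges overlapped. Thalamus markers had 8 of 8 positive estimates there (median 0.97; summed CPM 136 to 709 against 121 to 184). The sum of 709 CPM was that of upACSS2 mouse 4, and the other 4 had 136 to 160.0, inside the range with vector. Without that mouse Gad2 stood at 0.21 (SE 0.102, adjusted p = 0.995). At 6 months Gad1 had 313, 372, 265, 371 and 357 against 414, 349, 489, 311 and 350.0 CPM (-0.19, adjusted p = 0.436). Pvalb had 22.6, 26.7, 33.5, 24.02 and 24.1 against 20.99, 24.5, 70.4, 21.5 and 27.8 CPM (-0.34, adjusted p = 0.593), with vector library 3 far above the rest. Without it the estimate for Pvalb turned to 0.14 (SE 0.197, adjusted p = 0.818), and 6 of the 9 estimates were positive. That library had the lowest summed excitatory markers of its group (3894 CPM against 5218 to 7679) and the highest astrocyte markers (9993 CPM against 4916 to 7393), whose part was not tested. Choroid plexus markers summed to 128 to 6017 CPM with upACSS2 and 82.9 to 451 with vector, with 6 of 6 estimates positive (median 3.27, none called). By edgeR 463 genes at 1 month and 2237 at 6 months had an unadjusted p under 0.05.

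At 6 against 1 month after injection with vector all 9 estimates were positive and none was called (7.46% of all genes), with Gad1 the nearest (383 ± 69.9 against 307 ± 14.6 CPM, SD, n = 5 and 5; 0.32, SE 0.110, adjusted p = 0.0773). Without 6-month vector library 3, whose Gad1 was 489 CPM, the estimate was 0.21 (adjusted p = 0.23). Pvalb (-0.39), Dlx1 (-0.06), Dlx5 (-0.08) and Dlx6 (-0.16) then turned negative, with none of the 9 called. Reln, the secreted protein reelin (96.1 against 58.2 CPM, 0.72) and Slc38a2, a glutamine transporter (149 against 99.5 CPM, 0.58), were the companion genes called. With upACSS2, where the tissue labels differ between the times and cannot be told apart from them, none of the 9 was called (0.0442% of all genes), with estimates of -0.10 to 0.04. The interaction of virus and time, which holds the same difference in tissue labels, called 0 genes and gave negative estimates for all 9, Gad1 at -0.32 (adjusted p = 0.414). Without vector library 3 at 6 months 3 of them turned positive: Pvalb (0.27), Dlx5 (0.03) and Dlx6 (0.18).

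**Figure D5:**
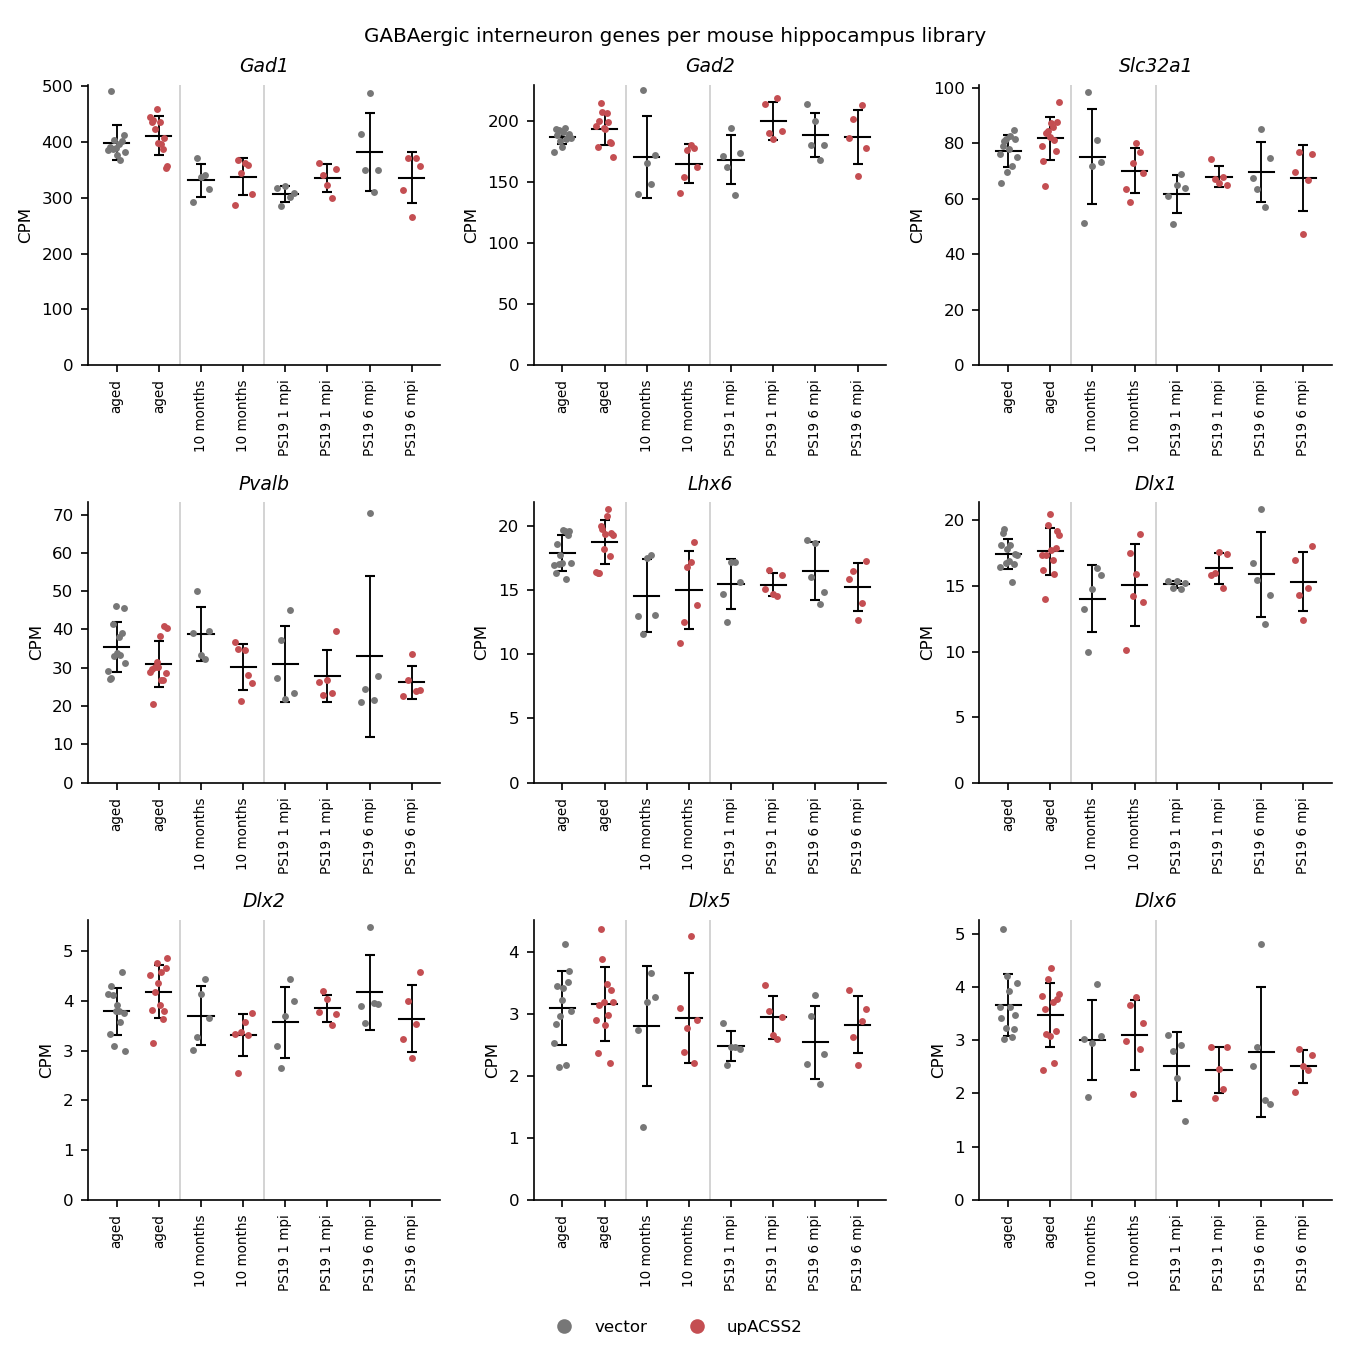
CPM (vertical axis, 1 panel per gene) in each library of the 8 groups of mice, with bars for the group mean and SD (n = 12 for aged, 6 and 5 for 10-month and 5 for each PS19 group). The groups with upACSS2 and with vector overlap for every gene, and 1 PS19 vector library at 6 months has 70.4 CPM of Pvalb.

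How the 9 genes varied together within groups was described over the 98 libraries as the Pearson correlation of log2 CPM after each group's mean was subtracted; libraries of a table share their scaling and cell make-up, and no p is given. Gad1 and Gad2 had 0.798 over all libraries, with 0.387 in the aged mice and 0.881 in the unstimulated neurons. Over all libraries Pvalb had -0.220 (Lhx6) to 0.209 (Dlx6) with the other 8. Single experiments had wider ranges for Pvalb. Among these were -0.317 (Gad2) to 0.489 (Slc32a1) in the aged mice and -0.120 (Slc32a1) to 0.479 (Dlx1) in the unstimulated neurons. The 12 stimulated libraries had -0.859 (Lhx6) to 0.550 (Dlx6). In the 7 libraries of the culture without virus all the values of Pvalb were negative, at -0.738 (Dlx2) to -0.390 (Dlx5). Pvalb and Lhx6 had -0.680 in the 10-month mice. Day 9 values of Pvalb rest on at most 6 counts a library, and the effect of this on the correlations was not tested. Gad1 and Slc32a1 had 0.981 in the 7 libraries of the culture without virus and -0.197 in the 24 libraries of the aged mice. Of 12673 genes tested in all 6 tables, those outside the 9 most like Gad2 were Adarb2 (0.729), Dlx6os1 (0.728) and Cnr1 (0.725). Those most like Pvalb were Smim1 (0.612), Aktip (0.606) and Stx4a (0.572), and those most like Dlx6 were Vsnl1 (0.628), Prkar1b (0.612) and Vip (0.605).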

How the data were processed

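The authors deposited raw counts per gene in 6 tables, covering 98 libraries; all 98 columns were used and 0 were set aside. Per the submitters' processing notes, STAR, featureCounts, HTSeq, DESeq2 and the mm10 build were used, with roles, versions and strand setting not given in the sources used here. Groups came from the sample titles. In the culture table without virus, rows with no gene name (6.13% to 8.74% of counts) were left out.

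Each table was fitted on its own with edgeR 4.0.16 (R 4.3.3, limma 3.58.1): filterByExpr by group, TMM scaling and the two-sided quasi-likelihood F test, with Benjamini-Hochberg adjustment over all genes tested. Virus and hAD-tau contrasts in unstimulated neurons were fitted within each day, and day contrasts over both days. CPM are counts over TMM-scaled library sizes, and log2 CPM used a prior count of 2. The SE of a log2 fold change is its size over the square root of F. The fitting was tested on simulated data.

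The 9 genes and all gene lists were chosen with earlier results of these data known. The text names the 9 genes throughout, of the subtype, transcription factor and GABA handling lists at most the 4 genes of lowest adjusted p past the threshold in a comparison, and the 3 genes most correlated with Gad2, Pvalb and Dlx6. None of 242 pairs of libraries in a group differed by less than sampling noise (the lowest chi-square was 2.32 per gene). Same-numbered libraries deviated together, at correlations over 0.1 in every pair, for upACSS2 in hAD-tau (0.111 to 0.359) and for hAD-tau with vector (0.123 to 0.326) in stimulated neurons and in the culture without virus (0.220 to 0.394). This pairing comes from the data, through replicate numbers in the titles. Alternatives were DESeq2 1.42.0, its median-of-ratios size factors in edgeR, counts without the filter, a fit of the groups compared alone, all 24 unstimulated libraries together, a block for the replicate number, leaving out each library and, for levels, a prior count of 0.5 or no TMM.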

Additional observations from a re-analysis of the deposited data

Results flagged for a closer look

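Within groups of 4 to 10 libraries, 4 of 63 values checked stood apart from the rest by Dixon's 95% criterion, where chance gives about 1 in 20. Pvalb was at 39.7 CPM in PS19 upACSS2 mouse 5 at 1 month, where the other 4 had 23.0 to 26.9. It was at 70.4 CPM in PS19 vector mouse 3 at 6 months, where the other 4 had 21.0 to 27.8, and Dlx2 was high in the same mouse, at 5.49 against 3.56 to 3.96 CPM. Dlx2 was low in 10-month upACSS2 mouse 2, at 2.54 against 3.32 to 3.75 CPM.

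For 4 genes the same contrast separated the groups in opposite directions in different neuron experiments, and the difference between the experiments was not tested. Such opposite separations were common: 16.8% of 15094 genes had them over the 7 comparisons of hAD-tau with PBS (3 of the 9 genes), and 11.2% over the 6 of upACSS2 with vector (1 of the 9). For hAD-tau against PBS, Gad1 lay higher with upACSS2 at day 9 (log2 fold change 0.10) and lower with vector in the stimulated neurons (-0.43) and in the culture without virus (-1.14). Lhx6 lay higher with vector at day 21 (0.11) and lower with upACSS2 in the stimulated neurons (-0.53) and in the culture without virus (-1.54). Dlx1 lay higher with vector at day 9 (0.33) and with upACSS2 at day 21 (0.40) and lower in the culture without virus (-1.22). For upACSS2 against vector, Dlx6 lay higher in the stimulated neurons with hAD-tau (0.68) and lower at day 9 in PBS (-0.30).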

How the results depend on the processing

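The number of the 9 genes called was equal to that reported in 119 of 143 settings other than leaving out a library, and in 231 of 246 fits without 1 library. It fell from 7 to 6 between days with vector and PBS and with upACSS2 and hAD-tau, by the Dlx5 call, in 4 fits without 1 library and with only the groups compared. No called change reversed, and the cause of the changes below was not tested. DESeq2 called 4 in the culture without virus (edgeR 0), 4 in stimulated neurons for hAD-tau with vector (0), 4 for upACSS2 in hAD-tau (1), 2 for upACSS2 in PBS (0), 1 for hAD-tau with upACSS2 (0), 2 at day 21 for upACSS2 in hAD-tau (0) and 1 at day 9 for upACSS2 in hAD-tau (0). With all 24 unstimulated libraries 0 were called at day 9 for upACSS2 in PBS (2 within the day) and for hAD-tau with vector (1), and 2 at day 21 for upACSS2 in PBS (0) and 2 in hAD-tau (0). Without the filter on low counts 1 was called at day 9 for upACSS2 in hAD-tau and 1 for its interaction, and 1 for upACSS2 in PBS when stimulated. With only the groups compared, 1 was called at day 9 for upACSS2 in hAD-tau and 0 for it when stimulated. The replicate block called 1 at day 9 for upACSS2 in hAD-tau and, when stimulated, 1 for upACSS2 in PBS, 2 for it in hAD-tau, 1 for hAD-tau with vector, 1 with upACSS2 and 1 for the interaction; no other count of the 9 moved with the block. Leaving out 1 library gave 1 to 2 for upACSS2 in PBS at day 9 and 0 to 1 for hAD-tau with vector, the day 9 interaction and upACSS2 in hAD-tau when stimulated.

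Counts over all genes moved more, by over 1.5 times in 92 of 246 fits without 1 library. At day 9 these fits gave 529 (without vector library 1) to 1287 genes for upACSS2 in PBS and 60 (without hAD-tau library 2) to 1409 (without hAD-tau library 3) for hAD-tau with vector. In stimulated neurons they gave 1 (without upACSS2 library 1 or vector library 3) to 460 (without vector library 2) for upACSS2 in hAD-tau and 0 (without hAD-tau library 1 or 3, or PBS library 1 or 3) to 1293 (without hAD-tau library 2) for hAD-tau with vector, and 374 (without 1-month library 1) to 1376 in PS19 mice with vector between times. At day 9 the 1437 genes called for upACSS2 in PBS became 2 with all 24 libraries. The 97 for upACSS2 in hAD-tau became 368 without the filter, 54 with only the groups compared and 1 with all 24. The 600 for hAD-tau with vector became 1153, 257 and 1 in those settings, and the 49 with upACSS2 became 201, 125 and 0 (DESeq2 80). The 93 for the interaction became 794 without the filter, 327 by DESeq2, 142 with the block and 0 with all 24. At day 21 the 2 for upACSS2 in PBS became 360 by DESeq2, 5 without the filter, 1 with only the groups compared and 1576 with all 24, and the 4 in hAD-tau became 131, 2, 1 and 528 (1 with the block). The 0 for hAD-tau became 3 with vector and 11 with upACSS2 by DESeq2, and 29 and 8 with all 24; DESeq2 gave 3 for that interaction and 124, against 6, for day by virus. In stimulated neurons DESeq2, no filter, the block and only the groups compared gave 424, 51, 280 and 2 for upACSS2 in PBS (31 by edgeR), 961, 220, 399 and 21 in hAD-tau (140) and 458, 110, 487 and 167 for hAD-tau with upACSS2 (31). For hAD-tau with vector (451) DESeq2 gave 1525, the block 1069 and only the groups compared 0, and the interaction (0) had 129 and 166 by the first 2. The culture without virus (0) had 308 by DESeq2 and 1 with its size factors or without the filter. In aged mice the block gave 13 and a term for the 2 sets of replicates 14 (0). DESeq2 called 3 in 10-month mice, and 1, 128 and 3 in PS19 mice at 1 month, at 6 months and for the interaction (0 each; 1 without the filter at 1 month). From 1 to 6 months DESeq2, no filter and the block gave 1869, 656 and 782 with vector (1182) and 175, 4 and 0 with upACSS2 (7; 1 with only the groups compared). At day 9 Pvalb had 1 to 11 counts over the 3 libraries of a group and did not pass the filter, so no day 9 contrast of virus or hAD-tau was tested for it.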
